A study of Mus musculus with 11 samples.

Results

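Fibro/adipogenic progenitors are the connective tissue progenitor cells of skeletal muscle, and the 10 genes described here are ones by which these cells and their states are commonly recognised. They are Hic1, Pdgfra, Ly6a, Cd34, Dpp4, Pi16, Lum, Smoc2, Gsn and Meox1, taken by symbol from the count tables, where all 10 of 10 were found among 24421 symbols. In resting muscle these cells lie between the fibres, keep up the extracellular matrix and signal to muscle stem cells, and after injury they multiply and can give rise to fibroblasts and adipocytes. Single-cell studies of mouse connective tissue describe a Dpp4- and Pi16-bearing state of adventitial and perivascular sheaths and other states, nearer the fibres, with more Smoc2 and Lum. Beta-catenin, the protein changed in this study, carries the canonical Wnt signal to the nucleus by pairing with TCF and LEF factors.

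The study sequenced poly(A) RNA from hindlimb muscle at rest in mice given tamoxifen, and its question was the role of beta-catenin in mesenchymal progenitors. WT/flox mice (written WTlFlox in the labels) are described as Hic1CreERT2, b-CATENIN exon3 WT/flox and Td.tomato, so that Cre is made where Hic1 is active and, once tamoxifen is given, deletes exon 3 from 1 Ctnnb1 allele and leaves a stabilised protein. Animals labelled WT were also given tamoxifen and sorted on tdTomato, and the labels do not list their other alleles. Sorted progenitors came from 3 WT/flox animals (74A1 and 72B7 at day 14 after tamoxifen, 74A3 at day 56) and 3 WT animals (72B8, 74A2 and 73C3 at day 14). Whole lysate of the tibialis anterior muscle came from 3 WT/flox animals (71B3, 71B4 and 71B5) and 2 WT animals (73A5 and 73A7), all at day 56. The sort took CD45-, CD31-, Sca1+, tdTomato+ and alpha7- cells. Sca1 is the protein of Ly6a and the tdTomato label depends on Cre made from the Hic1 locus, so these 2 members helped to choose the cells. The sources give no age and no strain.

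Total counts were 13119843 to 16805238 in the 6 progenitor libraries and 16892158 to 19449227 in the 5 muscle libraries. The Ctnnb1 count over the whole gene, which cannot show the loss of 1 exon, was 378 to 424 CPM in WT/flox and 459 to 526 CPM in WT progenitors, with no overlap, and 283 to 304 CPM in WT/flox and 271 to 324 CPM in WT muscle. Neither difference passed edgeR's quasi-likelihood test (adjusted p = 0.673 in progenitors and 0.997 in muscle). The progenitor libraries were nearly free of the lineages the gate removes. The 10 endothelial markers summed to 0.00196 to 0.00286% of counts in WT/flox and 0.000929 to 0.00416% in WT progenitors, and the 10 immune markers summed to 0.000561 to 0.00145% in WT/flox and 0.00064 to 0.000942% in WT. The 6 muscle stem cell markers summed to 0.000134 to 0.000396% in WT/flox and 0.000164 to 0.000369% in WT; Myf5 and Cdh15 had 0 counts in all 6 progenitor libraries, and nearly all counts were of Itga7, the gene of alpha7 (112 in WT/flox and 114 in WT). The 10 myofibre markers made up 13.2 to 16.8% of counts in WT/flox muscle and 16.7 to 18.2% in WT muscle, against 0.00193 to 0.00253% in WT/flox and 0.00191 to 0.0129% in WT progenitors, so both materials matched their labels.

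All 10 members were higher in sorted progenitors than in whole muscle, in both genotypes. In one edgeR fit of the 11 libraries with 4 groups, 10 of 10 passed the test in the direction of progenitors in WT/flox, where 39.9% of 13781 tested genes did, and 10 of 10 in WT, where 38.6% did. Of the 10, 9 were both called and at least 4-fold higher in WT/flox and 10 in WT, beside 19.5% of all genes in WT/flox and 19.7% in WT. The median log2 fold change of the members was 4.39 in WT/flox and 4.58 in WT, against medians over all genes of 0.05 and 0.09. The genes are established progenitor markers, so this checks the label of the sorted cells. For Ly6a and Hic1 it also follows from the gate. Sorting, RNA kit and, for most libraries, day after tamoxifen changed together with the material and cannot be told apart from it. With totals in place of TMM scaling the median of all genes moved to 0.58 in WT/flox and 0.75 in WT, the share of called genes that were higher moved to 62.9% from 50.6% and to 66% from 50.8%, and all 10 members were still called higher.

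The size of the difference varied widely between members. Dpp4, a membrane-bound dipeptidase that marks the adventitial state, differed most, with log2 fold changes of 5.60 ± 0.28 (SE) in WT/flox and 6.43 ± 0.36 in WT. Pdgfra, the receptor tyrosine kinase for PDGF ligands and the usual marker of these cells, followed with 5.39 ± 0.23 and 6.15 ± 0.29. Pi16, a peptidase inhibitor-like protein of the CAP superfamily, had 4.84 ± 0.38 and 5.59 ± 0.47. Gsn, which encodes the actin-severing protein gelsolin, had 4.62 ± 0.35 and 5.28 ± 0.43. Lum (lumican, a small leucine-rich proteoglycan of collagen fibrils), Smoc2 (a secreted calcium-binding protein of the SPARC family) and Cd34 (a surface sialomucin) lay between 4.10 and 4.74 in both genotypes. Hic1, a zinc-finger transcriptional repressor, differed by 3.14 ± 0.17 and 3.70 ± 0.21, and Ly6a by 3.10 ± 0.29 and 3.04 ± 0.34. Meox1, a homeobox transcription factor of the somites and their mesenchyme, was at 1.78 ± 0.23 in WT/flox and 3.42 ± 0.28 in WT.

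Related genes did not all lie on the side of progenitors. All 12 tested genes of the Dpp4-type state were called higher in progenitors in both genotypes, with Fbn1 (fibrillin-1, of elastic microfibrils) at a log2 fold change of 7.27 in WT/flox and 7.42 in WT. Of 11 of the Smoc2- and Lum-type state, 10 were called higher in each genotype, among them Bmp4, a growth factor, at 3.9 and 4.16. Of the 6 PDGF ligands and receptors beside Pdgfra, 4 were higher and 2 lower in progenitors in each genotype. The receptor gene Pdgfrb was higher by 2.72 in WT/flox and 2.58 in WT, while the ligand genes Pdgfb (-5.47 and -5.36) and Pdgfa (-3.79 and -3.84) were lower. Podxl (-4.86 and -4.36) and Podxl2 (-1.75 and -2.20), the sialomucin relatives of Cd34, were also lower in progenitors, on the other side from Cd34.

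**Figure D1:**
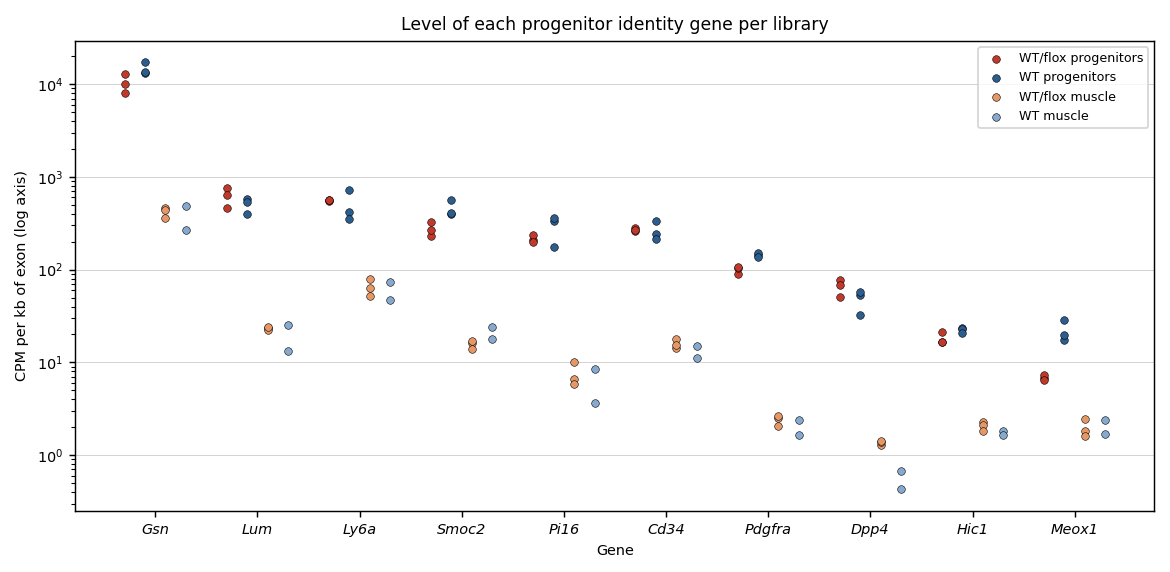
Level of each of the 10 genes in CPM per kb of exon (log axis, TMM scaling over all 11 libraries); each point is 1 library and the 4 colours are the 4 groups. Gsn stands far above the other members in progenitors, at 8023 to 17296 CPM per kb, and for each gene the progenitor points lie above the muscle points.

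Set per kb of exon, the members covered a wide range of levels in progenitors. Gsn ranked 1 of 23376 genes in both progenitor groups, at 8023 to 13020 CPM per kb in WT/flox and 13171 to 17296 CPM per kb in WT. It took 3.07 to 4.89% of all counts in WT/flox progenitors and 5.16 to 6.21% in WT progenitors. Next came Lum at 462 to 756 CPM per kb in WT/flox and 399 to 581 in WT, Ly6a at 545 to 561 and 351 to 725, and Smoc2 at 230 to 329 and 402 to 563. These 3 overlapped in WT, while in WT/flox Smoc2 lay below the other two in every library. Pi16 (201 to 237 CPM per kb in WT/flox, 177 to 358 in WT) and Cd34 (260 to 281, 212 to 332) overlapped in WT, while in WT/flox Cd34 was higher in every library, and both overlapped Smoc2 there. Pdgfra stood at 89.4 to 108 and 138 to 150 CPM per kb and Dpp4 at 50.8 to 76.7 and 32.7 to 57.3. The transcription factors were lowest, with Hic1 at 16.6 to 21.5 and 20.7 to 23.7 CPM per kb and Meox1 at 6.45 to 7.22 and 17.2 to 28.5, so that the ranges of these 2 overlapped in WT and lay apart in WT/flox. In muscle the order was different: Gsn was again first, at 359 to 467 CPM per kb in WT/flox and 270 to 485 in WT, followed by Ly6a at 52.5 to 78.4 and 46.7 to 74.3. Lum (22.2 to 24.1 and 13.4 to 25.1), Smoc2 (13.8 to 16.9 and 18 to 24.1) and Cd34 (14.1 to 17.9 and 11.2 to 15.0) came next, and in each genotype the range of Smoc2 overlapped that of a neighbour. Pi16 stood at 5.84 to 10.1 and 3.66 to 8.38 CPM per kb. Pdgfra (2.05 to 2.66 and 1.66 to 2.39), Hic1 (1.82 to 2.26 and 1.65 to 1.81) and Meox1 (1.61 to 2.47 and 1.68 to 2.36) overlapped one another in both genotypes, and Dpp4 was last, at 1.28 to 1.4 and 0.429 to 0.679.

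Part of the Ly6a value is uncertain, because its transcripts share sequence with neighbouring genes of the Ly6 family. Of its 1283 windows of 43 bases, the read length, 305 (23.8%) also occur in transcripts of another gene, 228 of them in Ly6c1. The following 48 coding bases are identical in Ly6a (exon 3 of its transcript, GRCm38 chr15:74995283-74995330, minus strand) and Ly6c1 (exon 4, chr15:75045423-75045470, minus strand), and no single 43-base read that lies inside them can tell the genes apart.
Ly6a and Ly6c1: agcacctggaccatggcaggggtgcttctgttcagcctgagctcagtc
The share was 5.19% for Pdgfra, 4.89% for Pi16, 3.06% for Cd34 and 3.03% for Dpp4, of which the antisense genes Gm42802 and Gm42803 held most for Pdgfra, AC162182.1 185 of 321 windows for Pi16, Gm16897 109 of 225 for Cd34 and Gm13561 all 191 for Dpp4. If strand was not used in counting, reads in these shared stretches cannot be told apart from reads of the antisense genes. It was 0 for Hic1, Lum, Smoc2, Gsn and Meox1.

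Meox1 was the one member that differed between genotypes in sorted progenitors past the threshold. It had 18.3, 19.6 and 17.7 CPM in the WT/flox libraries 74A1, 72B7 and 74A3, against 47.1, 52.9 and 71.3 CPM in the WT libraries 72B8, 74A2 and 73C3. The highest WT/flox library lay well under the lowest WT library, and the WT/flox values were close together while 73C3 stood highest in WT. The mean was 18.5 ± 0.96 CPM in WT/flox and 57.1 ± 12.7 CPM in WT (SD, n = 3 each), and the log2 fold change was -1.62 with an SE of 0.19 and a 95% interval of -2.04 to -1.2 (edgeR quasi-likelihood F test, adjusted p = 0.00114). Meox1 (ENSMUSG00000001493) lies on GRCm38 chr11:101877510-101894374, minus strand, and shares no 43-base window with another gene. It ranked 4359 of 23376 genes per kb in WT/flox and 1489 in WT progenitors. With the day 56 library 74A3 left out, so that all libraries were of day 14, the log2 fold change of Meox1 was -1.59 (adjusted p = 0.0106). Its paralog Meox2 had 128, 128 and 149 CPM in WT/flox and 131, 108 and 134 CPM in WT progenitors, with a log2 fold change of 0.12 ± 0.16 (SE) and an adjusted p of 0.942.

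So 1 of 10 members passed the test in progenitors, downward, where 3.66% of 12392 tested genes passed in either direction, 2.34% upward and 1.32% downward. Of the 10, 3 had an unadjusted p under 0.05 (Meox1, Smoc2 and Pdgfra). DESeq2 called 2 (Meox1 and Smoc2), beside 752 of all 13548 genes with an adjusted p. The share of all genes with an unadjusted p under 0.05 was not counted, here or in the comparisons and lists below. Of the 10, 4 had no overlap between the libraries of the genotypes, and all 4 (Meox1, Smoc2, Pdgfra and Gsn) were lower in WT/flox; over all tested genes 16.9% did not overlap (8.17% lower and 8.73% higher in WT/flox). The median log2 fold change of the members was -0.32, against 0.00 over all genes.

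**Figure D2:**
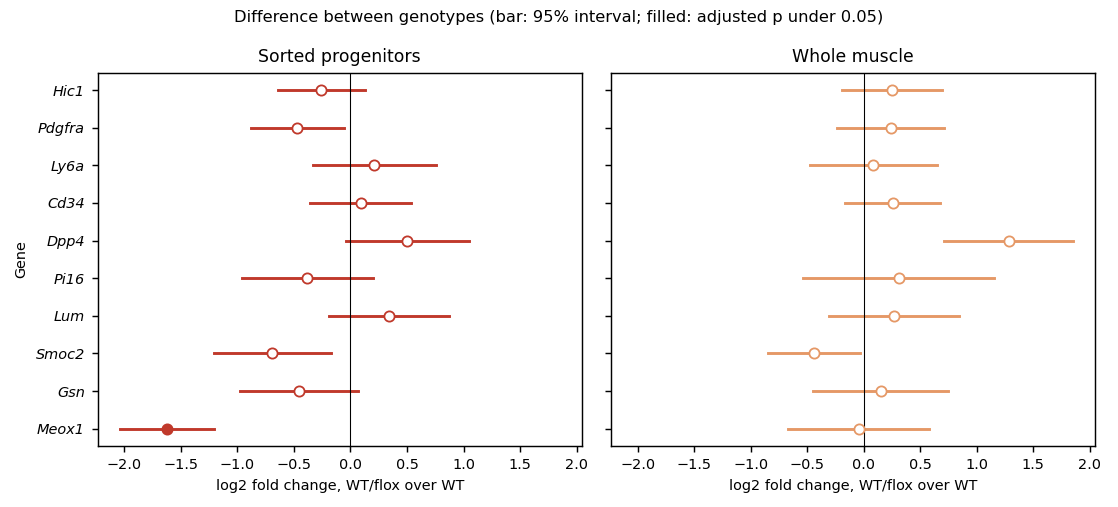
Log2 fold change of WT/flox over WT for the 10 genes in sorted progenitors (left) and whole muscle (right); bars are 95% intervals and filled points passed an adjusted p of 0.05. Meox1 at -1.62 in progenitors is the single filled point, and Dpp4 at 1.28 is the point farthest from 0 in muscle.

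Smoc2 had 1958, 2786 and 2316 CPM in WT/flox progenitors (74A1, 72B7, 74A3), against 3428, 4767 and 3192 CPM in WT progenitors (72B8, 74A2, 73C3). All WT/flox values were below all WT values, and 74A2 stood apart at the top. The log2 fold change of -0.69 ± 0.23 (SE) had an adjusted p of 0.189 in edgeR and of 0.0315 in DESeq2. Pdgfra had 1098, 1274 and 1335 CPM in WT/flox and 1751, 1836 and 1553 CPM in WT, again with no overlap, for a log2 fold change of -0.47 ± 0.18 (adjusted p = 0.292). Gsn had 38983, 50093 and 31247 CPM in WT/flox and 50964, 52341 and 61414 CPM in WT, where 72B7 lay just under the lowest WT library. Its log2 fold change was -0.45 ± 0.23 (adjusted p = 0.523).

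**Figure D3:**
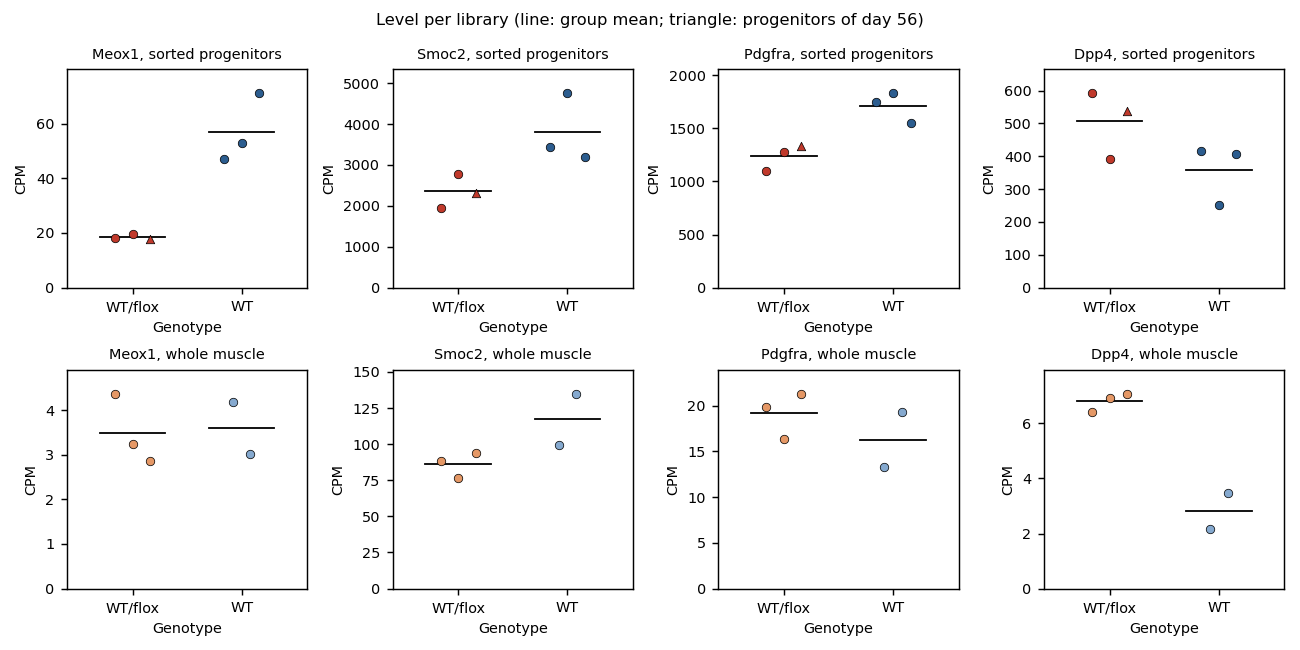
CPM per library of Meox1, Smoc2, Pdgfra and Dpp4 in sorted progenitors (upper row) and whole muscle (lower row), WT/flox left of WT; lines are group means and the triangle is the progenitor library of day 56. In progenitors the genotypes do not overlap for Meox1, Smoc2 and Pdgfra, and in muscle they do not overlap for Smoc2 and Dpp4.

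The other 6 members overlapped between genotypes in progenitors. Hic1, whose locus carries the Cre, had 76.3, 76.3 and 99.4 CPM in WT/flox and 109, 105 and 87.4 CPM in WT (log2 fold change -0.26, 95% interval -0.64 to 0.13, adjusted p = 0.711). The day 56 library was the highest of the WT/flox libraries. Ly6a was even in WT/flox, at 805, 823 and 827 CPM, and spread in WT, at 623, 515 and 982 CPM (log2 fold change 0.21, -0.33 to 0.76). Cd34 had 2505, 2313 and 2417 CPM in WT/flox and 2182, 1886 and 2720 CPM in WT (0.09, -0.36 to 0.54). In both of these surface markers 73C3 was the highest and 74A2 the lowest of all 6 libraries.

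Among the members that mark the states of these cells, Dpp4 and Pi16 lay on opposite sides of 0, and neither passed the test. Dpp4 had 593, 391 and 538 CPM in WT/flox and 415, 252 and 407 CPM in WT (log2 fold change 0.50, 95% interval -0.04 to 1.05, adjusted p = 0.470). Pi16 had 1612, 1838 and 1577 CPM in WT/flox and 2626, 1369 and 2560 CPM in WT (-0.38, -0.96 to 0.20, adjusted p = 0.721). The WT library 74A2 held the lowest Dpp4 and Pi16 and the highest Smoc2 of all 6. Lum had 2266, 1379 and 1945 CPM in WT/flox and 1198, 1733 and 1484 CPM in WT (0.34, -0.19 to 0.87, adjusted p = 0.739).

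Ratios within a library do not depend on scaling to depth. Counts of Dpp4 per kb were 0.333, 0.155 and 0.255 of those of Smoc2 in WT/flox progenitors, against 0.133, 0.0581 and 0.14 in WT progenitors, and 0.0799, 0.0995 and 0.0832 in WT/flox muscle, against 0.0239 and 0.0282 in WT muscle. The genotypes did not overlap in either material. Of the 6 ratios among Dpp4, Pi16, Smoc2 and Lum, 3 lay apart in progenitors and 4 in muscle, beside 20% and 27.8% of the ratios of any 2 tested genes with counts in every library. Of the 45 ratios among all 10 members, 44.4% lay apart in progenitors and 33.3% in muscle. Ratios that share a gene are not independent. The ratio of Dpp4 to Pi16 also lay apart, at 0.214 to 0.371 in WT/flox and 0.159 to 0.185 in WT progenitors, and 0.126 to 0.240 and 0.0811 to 0.117 in muscle, as did that of Smoc2 to Lum (0.304 to 0.712 and 0.757 to 1.01 in progenitors, 0.623 to 0.699 and 0.961 to 1.34 in muscle). The ratio of Pi16 to Lum overlapped in both, at 0.274 to 0.513 in WT/flox and 0.304 to 0.843 in WT progenitors, as did that of Pi16 to Smoc2 (0.721 to 0.900 and 0.314 to 0.876 in progenitors, 0.346 to 0.633 and 0.204 to 0.348 in muscle). The ratio of Dpp4 to Lum overlapped in progenitors (0.101 to 0.110 in WT/flox and 0.0563 to 0.134 in WT) and lay apart in muscle (0.0546 to 0.0620 and 0.0271 to 0.0320). These ratios are descriptions of libraries and were not tested. The ratio of Meox1 to Hic1 was 0.3 to 0.432 in WT/flox and 0.728 to 1.37 in WT progenitors, and 0.863 to 1.09 and 1.01 to 1.31 in muscle.

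**Figure D4:**
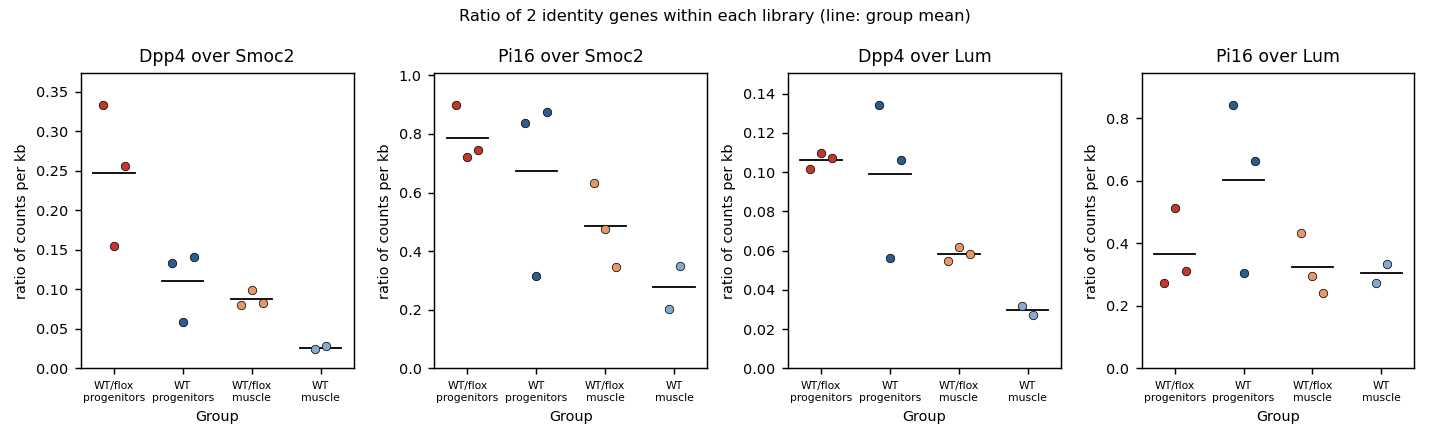
Ratio of counts per kb of Dpp4 or Pi16 to Smoc2 or Lum within each library, in the 4 groups; points are libraries and lines are group means. Dpp4 to Smoc2 is higher in each WT/flox library than in each WT library of that material, from 0.155 upward against at most 0.14 in progenitors, while Pi16 to Lum overlaps.

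Of the 23 other genes of the 2 states, 3 passed the test in progenitors, all downward, where 1.32% of all tested genes passed downward. Of 12 further genes of the Dpp4-type state, 0 rose and 1 fell in WT/flox progenitors (edgeR), with a median log2 fold change of -0.54 against 0.00 over all genes; 7 of the 12 had an unadjusted p under 0.05, and DESeq2 called 1 higher (Wnt2) and 2 lower (Dact2 and Stmn4). The gene that fell was Stmn4, a stathmin-family regulator of microtubules, with 17.5, 32.6 and 20.5 CPM in WT/flox and 77.9, 46.4 and 74.7 CPM in WT (-1.5 ± 0.27, adjusted p = 0.0142). Of 11 further genes of the Smoc2- and Lum-type state, 0 rose and 2 fell, with a median of 0.34. Of these 11, 7 had an unadjusted p under 0.05, and DESeq2 called 4 higher (Cxcl14, Apod, Bmp4 and Crispld2) and 3 lower (Col15a1, Ccl11 and Col4a1). Those that fell in edgeR were Ccl11, the eosinophil chemokine eotaxin, with 308, 265 and 320 CPM in WT/flox and 501, 669 and 596 CPM in WT (-0.98 ± 0.19, adjusted p = 0.0169), and Col15a1, a basement membrane collagen, with 728, 832 and 698 CPM in WT/flox and 2071, 2925 and 1033 CPM in WT (-1.42 ± 0.33, adjusted p = 0.0471). Each of these 3 calls was lost on leaving out some libraries, 74A3 among them: without 74A3 the adjusted p was 0.0840 for Stmn4, 0.0711 for Ccl11 and 0.191 for Col15a1.

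**Figure D5:**
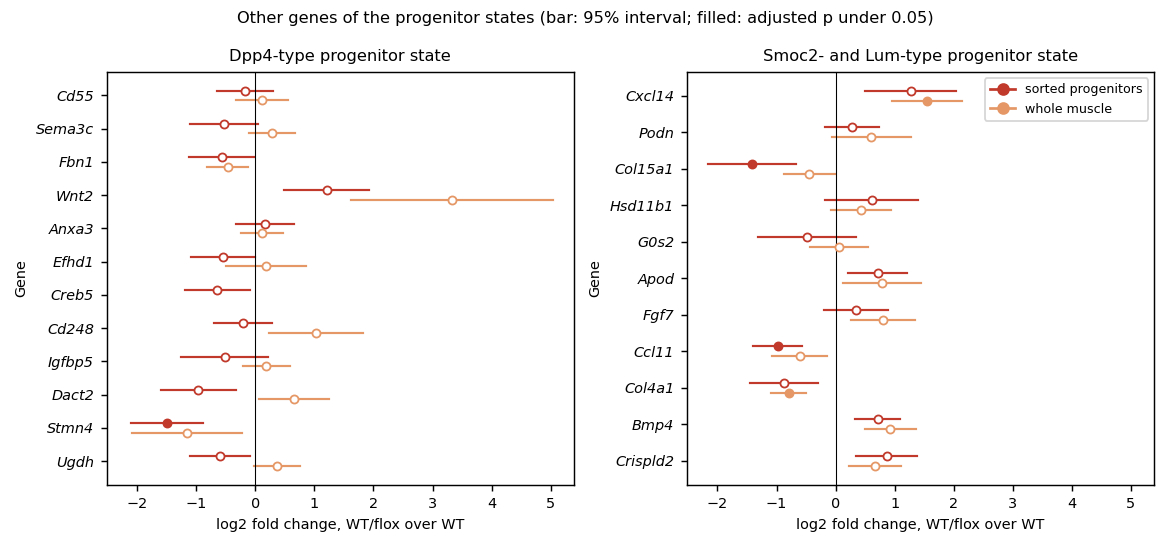
Log2 fold change of WT/flox over WT with 95% intervals for other genes of the Dpp4-type state (left) and of the Smoc2- and Lum-type state (right), in progenitors and in muscle; filled points passed an adjusted p of 0.05. In progenitors the filled points are Stmn4 at -1.5, Ccl11 at -0.98 and Col15a1 at -1.42.

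Families of the members showed single genes that passed the test beside many that did not. Over all tested genes, 2.34% passed upward and 1.32% downward in progenitors, the shares for these families and for the markers below. Some genes, such as Dcn and Crispld2, are in more than 1 list, so the counts per list are not independent. Of 20 tested pan-fibroblast genes 4 rose in WT/flox progenitors and 0 fell, with a median log2 fold change of 0.33. They were Tcf7l2, a TCF partner of beta-catenin that is also used to mark muscle connective tissue cells, at 203, 152 and 198 CPM in WT/flox and 39.4, 45.6 and 44.1 CPM in WT (2.10 ± 0.17, adjusted p = 0.000133), Fbln1, encoding the matrix protein fibulin-1 (1.36 ± 0.22, adjusted p = 0.00833), and the type I collagen genes Col1a1 (1.16 ± 0.2, adjusted p = 0.00998) and Col1a2 (1.09 ± 0.2, adjusted p = 0.0142; singled out after its values were seen). Col1a1, Col1a2 and Fbln1 each lost the call without some WT/flox library (adjusted p up to 0.0564, 0.0710 and 0.0521). Of 13 small leucine-rich proteoglycans, the family of Lum, 2 rose and 0 fell, namely Ecm2 (1.08 ± 0.23, adjusted p = 0.0291) and Omd (1.26 ± 0.28, adjusted p = 0.0354), and both calls were lost without 74A3 (adjusted p = 0.0955 and 0.142). Of 7 prolyl dipeptidase relatives of Dpp4, 1 rose: Dpp6, an inactive dipeptidase-like partner of potassium channels in neurons, had 38.2, 24.3 and 33.4 CPM in WT/flox and 3.54, 1.79 and 2.59 CPM in WT (3.60 ± 0.28, adjusted p = 9.0e-05). Of 6 SPARC family relatives of Smoc2, 1 rose, Sparcl1, at 2458, 2583 and 3107 CPM in WT/flox and 983, 1191 and 755 CPM in WT (1.48 ± 0.22, adjusted p = 0.0052). Of 4 tested CAP relatives of Pi16, 1 rose, Crispld1 (1.25 ± 0.24, adjusted p = 0.0201; 0.0666 without 74A1). In the 6 PDGF ligands and receptors other than Pdgfra, 6 tested Ly6 genes, 6 gelsolin relatives of Gsn, the CD34 family members Podxl and Podxl2, and the paralogs Hic2 and Meox2, 0 of 22 passed in edgeR, 5 had an unadjusted p under 0.05 and DESeq2 called 1 (Capg, an actin-capping protein).

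Some markers of neighbouring cells also differed between the progenitor groups. The 8 mural cell markers summed to 0.0092 to 0.0161% of counts in WT/flox and 0.0179 to 0.0284% in WT. Cspg4 (the NG2 proteoglycan) was the 1 of 7 tested that passed, at 37.0, 26.7 and 29.6 CPM in WT/flox and 127, 219 and 95.6 CPM in WT (-2.24 ± 0.30, adjusted p = 0.00269). Between materials Cspg4 was called higher in WT progenitors than in WT muscle (log2 fold change 2.29, edgeR adjusted p = 6.2e-06), where the other 7 mural markers were called lower. Without Cspg4 the other 7 summed to 0.00659 to 0.0125% in WT/flox and 0.00511 to 0.00975% in WT, overlapping, and the median log2 fold change of the 7 tested was 0.08. The 7 glial markers summed to 0.0013 to 0.00278% in WT/flox and 0.00304 to 0.00507% in WT. All 5 tested had log2 fold changes below 0 (median -0.60), with 0 called in edgeR, 1 at an unadjusted p under 0.05 and 0 called by DESeq2. Much of the glial sum is Ngfr (145 counts in WT/flox and 646 in WT progenitors) and S100b (202 and 333). Both had fewer counts in muscle (Ngfr 120 and 62, S100b 139 and 91). Between materials 4 of 6 tested glial markers were called lower in progenitors in each genotype, and 1 higher in WT. The glial sum without Ngfr and S100b was not taken. The 6 tendon markers summed to 0.166 to 0.212% in WT/flox and 0.112 to 0.158% in WT, with 2 called higher (Thbs4 and Mkx) and 1 lower (Cilp2) of 6. All 3 calls were lost without 74A3 (adjusted p = 0.142, 0.139 and 0.186), without 74A1 (0.0698, 0.0617 and 0.129) and without 72B8 (0.141, 0.111 and 0.138). Most of that sum is Thbs4; the other 5 summed to 0.00733 to 0.0149% in WT/flox and 0.0189 to 0.0465% in WT, 4 of the 6 had a log2 fold change below 0 and the median was -0.57. DESeq2 also called Fmod lower. Between materials Thbs4 was called higher in progenitors, by log2 fold changes of 2.77 in WT/flox and 1.59 in WT. Of the 6 tendon markers, 2 were called higher and 3 lower in progenitors in WT/flox, and 1 higher and 1 lower in WT. All 7 tested myofibre markers had log2 fold changes below 0 (median -1.76) and an unadjusted p under 0.05, with 0 called in edgeR and 3 lower in DESeq2 (Atp2a1, Mylpf and Pvalb), and their share of counts was lowest in the WT library 72B8 (0.00191%) and highest in the WT libraries 74A2 and 73C3 (0.0068 and 0.0129%). The part of these cells in the fall of Meox1 was not tested.

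In whole muscle 0 of 10 members passed edgeR's test between genotypes, where 0.727% of 12654 genes did (0.514% upward and 0.213% downward). Of the 10, 2 (Dpp4 and Smoc2) had an unadjusted p under 0.05. DESeq2 called 1, Dpp4, beside 265 of all 12437 genes with an adjusted p. In such bulk tissue, fewer cells of a type and less RNA per cell cannot be told apart. The identifiers of the animals also separate by genotype, 71B for WT/flox and 73A for WT, and cannot be told apart from it. Of the 10, 3 did not overlap between genotypes (Hic1 and Dpp4 higher in WT/flox, Smoc2 lower), beside 25.3% of all genes (12.4% higher and 12.9% lower). The median log2 fold change of the members was 0.24, against 0.00 over all genes.

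Dpp4 had 6.43, 6.94 and 7.08 CPM in WT/flox muscle (71B3, 71B4, 71B5), against 2.15 and 3.46 CPM in WT muscle (73A5, 73A7). The WT/flox libraries lay close together and well above both WT libraries, on 122 to 148 counts in WT/flox and 36 and 54 counts in WT. The log2 fold change was 1.28 ± 0.25 (SE), with a 95% interval of 0.71 to 1.85, an unadjusted p of 0.000873 and an adjusted p of 0.0846. It passed the threshold in DESeq2 (adjusted p = 0.00554) and, in edgeR, with no filter on low counts (0.0378) and with the replicate block (0.0242). In edgeR it did not pass with RLE factors (0.0811) or total counts (0.107). Nor did it pass without the WT/flox library 71B3 (0.149), 71B4 (0.304) or 71B5 (0.325). Leaving out a WT library gave a log2 fold change of 1.66 (73A7) or 0.98 (73A5). Smoc2 had 88.5, 76.7 and 93.7 CPM in WT/flox and 99.3 and 135 CPM in WT muscle (-0.44, 95% interval -0.84 to -0.04, adjusted p = 0.448). Beside these values, the 21 pan-fibroblast genes summed to 0.241 to 0.266% of counts in WT/flox muscle and 0.116 to 0.175% in WT muscle, and their part in the Dpp4 result was not tested.

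Hic1 had 6.75, 6.35 and 5.46 CPM in WT/flox and 5.39 and 5.0 CPM in WT muscle, where the lowest WT/flox value barely cleared the WT values (0.25, 95% interval -0.19 to 0.69). Meox1 had 4.37, 3.25 and 2.87 CPM in WT/flox and 4.19 and 3.01 CPM in WT muscle, fully overlapping (-0.05, -0.67 to 0.58, adjusted p = 0.982). Per kb, its ratio to Pdgfra was 0.0598 to 0.0749 in WT/flox and 0.121 to 0.207 in WT progenitors. In muscle that ratio was 0.607 to 0.993 in WT/flox and 0.703 to 1.43 in WT. Since lysate holds other cells, the overlap cannot show whether Meox1 differed in progenitors within muscle. The remaining 6 members, Pdgfra, Ly6a, Cd34, Pi16, Lum and Gsn, overlapped, with log2 fold changes of 0.09 to 0.31. In each of these 6 the WT library 73A5 was the lowest of the 5 muscle libraries. Without 73A5 the log2 fold change was below 0 for 5 of them, at -0.01 for Pdgfra, -0.22 for Ly6a, -0.17 for Pi16, -0.12 for Lum and -0.22 for Gsn, and 0.06 for Cd34, so that no direction can be given for these members.

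Among other genes of the states in muscle, 0 of 11 tested of the Dpp4-type state passed in edgeR (5 had an unadjusted p under 0.05, and DESeq2 called 0), and 1 rose and 1 fell of 11 of the Smoc2- and Lum-type state. The one that rose was Cxcl14, a chemokine, at 152, 152 and 149 CPM in WT/flox and 36.0 and 67.7 CPM in WT (1.54 ± 0.26, adjusted p = 0.0487), and the one that fell was Col4a1, a basement membrane collagen, at 93.2, 89.9 and 98.5 CPM against 162 and 164 CPM (-0.79 ± 0.13, adjusted p = 0.044). Of 12 tested small leucine-rich proteoglycans Ogn (osteoglycin) rose, at 47.3, 50.8 and 66.4 CPM in WT/flox and 24.2 and 23.5 CPM in WT (1.2 ± 0.18, adjusted p = 0.0356). All 3 calls were lost without 71B5 (adjusted p = 0.258 for Cxcl14, 0.153 for Col4a1 and 0.107 for Ogn). The same held without 71B4 (adjusted p = 0.1645, 0.3486 and 0.1243). Of the 20 tested pan-fibroblast genes 0 passed in edgeR, 10 had an unadjusted p under 0.05 and DESeq2 called 4 (Dcn, Col3a1, Clec3b and Fbln1). In the other 8 families of the members, 0 of 36 tested genes passed, 4 had an unadjusted p under 0.05 and DESeq2 called 0. Beside these lists, 0.514% of all tested genes passed upward and 0.213% downward in muscle. Of 6 muscle stem cell markers 1 rose, Myod1, the myogenic transcription factor, at 70.3, 63.0 and 69.7 CPM in WT/flox and 32.9 and 30.8 CPM in WT (1.09 ± 0.14, adjusted p = 0.0177; up to 0.107 on leaving out a WT/flox library).

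Whether the genotype difference itself differed between progenitors and muscle was tested as an interaction, in which 1 of 10 members passed, as did 0.769% of 13781 genes (0.247% in its direction). For Meox1 the difference in progenitors was lower than that in muscle by a log2 fold change of -1.64 ± 0.35 (SE; 95% interval -2.39 to -0.89, adjusted p = 0.048). That call was near the threshold: it was lost on leaving out any of 9 of the 11 libraries (adjusted p 0.0538 to 0.216) and with RLE size factors (0.0539). Hic1, Pdgfra and Dpp4 had unadjusted p-values under 0.05 and adjusted p-values of 0.536, 0.406 and 0.554. The materials also differ in day here, since 5 of 6 progenitor libraries are of day 14 and all 5 muscle libraries of day 56. Because lysate holds RNA of other cells, the interaction cannot show whether progenitors within muscle responded differently from sorted ones.

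Sequences upstream of the start site were at hand from RefSeq (GRCm38.p6) for 6 of the 10 members, which include no entry for Ly6a, Lum, Smoc2 and Meox1. The 250 bases before the start are shown for Hic1, whose locus drives the Cre that labels the cells, and for Dpp4, which differed most between the materials. Capitals mark matches on either strand to the TATA box motif TATAAA, to the CCAAT box motif CCAAT and to the GC box motif GGGCGG.
Hic1, chr11:75170256-75170505, minus strand: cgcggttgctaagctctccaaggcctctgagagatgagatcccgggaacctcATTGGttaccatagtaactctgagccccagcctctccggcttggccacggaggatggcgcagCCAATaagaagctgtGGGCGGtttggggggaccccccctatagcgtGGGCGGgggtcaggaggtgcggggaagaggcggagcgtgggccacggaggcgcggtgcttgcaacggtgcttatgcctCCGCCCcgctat
Dpp4, chr2:62412232-62412481, minus strand: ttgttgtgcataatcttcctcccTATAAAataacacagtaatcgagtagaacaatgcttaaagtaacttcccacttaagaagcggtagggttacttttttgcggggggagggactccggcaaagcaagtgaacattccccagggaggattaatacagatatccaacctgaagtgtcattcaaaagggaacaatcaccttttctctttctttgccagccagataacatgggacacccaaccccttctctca
RefSeq has 2 start sites for Hic1 in this table, and the upstream one is shown. The Hic1 window shown is 64.4% G and C and holds 3 matches to GGGCGG and 2 to CCAAT; the other is 77.2% G and C, with 2 to GGGCGG and 0 to CCAAT. The Dpp4 window is 43.6% G and C and holds 1 match to TATAAA, 227 bases before the start. Over 32851 RefSeq promoter windows of this length the median is 52.4% G and C, and 32.7% hold GGGCGG, 33.8% CCAAT and 12.4% TATAAA. The TCF and LEF core CTTTGAT, held by 3.21% of all windows, was matched in none of the 9 windows of the 6 members. The motifs searched do not overlap each other in the windows printed, and a match or its absence describes these letters alone.

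Each member was matched with the 2 genes whose log2 CPM followed it most closely over the 11 libraries, among 13092 candidates. With libraries of 2 materials, such correlations are carried largely by the difference between progenitors and muscle, and all coefficients were 0.986 or above. Pdgfra was nearest to the lipid transporter genes Abca6 (r = 0.999) and Abca8a (r = 0.999), Gsn to Vasn (r = 0.999) and the matrix gene Dpt (r = 0.998), and Smoc2 to Ggt5 (r = 0.998) and Tbc1d10a (r = 0.997). Ggt5, like Smoc2, was lower in each genotype comparison without passing the test, with log2 fold changes of -0.74 in progenitors (adjusted p = 0.0675) and -0.63 in muscle (0.479). Dpp4 was nearest to Ogn (r = 0.997) and Ubtd2 (r = 0.997). Ogn had 0.68 in progenitors (adjusted p = 0.176) and 1.2 in muscle (0.0356), beside 0.50 and 1.28 for Dpp4. Ggt5 and Ogn were picked for following these members over the same libraries. Their shared direction is therefore partly built in and is no separate support. Hic1 was nearest to Nynrin and Zfpm2, Ly6a to Myl12b and Ddost, Cd34 to Nsg1 and Parva, Pi16 to Naaa and Timp2, and Lum to Rcn1 and Prss12. Meox1 had the loosest neighbours, Stmnd1 and Ttll2 (r = 0.987 and 0.986), with means under 1.5 CPM in every group.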

How the data were processed

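RNA was sequenced from sorted mesenchymal progenitors and from tibialis anterior lysate, as paired reads of 43 bp from a stranded poly(A) kit, per the labels' protocols. The deposited values are whole read counts per gene symbol, 1 table for each material, made by the authors with bcl2fastq 2.20, Bowtie and STAR on mm10, per the submitters' processing notes; which program counted the reads, and whether it used strand, is unknown here. Groups follow the labels, which name a different animal for each library; the authors' own sample table calls the lysates FAPs, against the labels. Each table was fitted alone between genotypes, and all 11 libraries together between materials, with edgeR 4.0.16 in R 4.3.3 (filterByExpr, TMM, robust quasi-likelihood F test, two-sided, Benjamini-Hochberg over all tested genes, threshold 0.05). SEs come from the F statistics. CPM within a comparison uses TMM of that material, and CPM per kb uses TMM of all libraries and the union exon length of GENCODE M21, which matched 23376 of 24421 symbols. Likeness uses log2 CPM with a prior count of 2. The test was checked on simulated counts. Alternatives were RLE factors, total counts, no filter, DESeq2 1.42.0 and leaving out each library. For the genotypes in progenitors they also included sex, identifier prefix and day 14 alone, and sex was not fitted in muscle. A block for the authors' replicate numbers, within each material, was added after seeing the data. Besides the members, up to 3 called genes per list and comparison by adjusted p were named, and the 2 most alike genes per member. Between materials only examples from some lists are given. Members and lists were chosen with earlier results of these data known. Hmcn2 and Ly6g, which are in 2 lists, were not analysed here.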

Additional observations from a re-analysis of the deposited data

Results flagged for a closer look

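The difference between genotypes itself differed between sorted progenitors and muscle in 4 of the genes described, by the interaction term of the edgeR fit of all 11 libraries. Meox1 had a difference in progenitors minus that in muscle of -1.639 on the log2 scale (SE 0.349, adjusted p = 0.048), from 18.5 against 57.1 CPM in WT/flox and WT progenitors and 3.5 against 3.6 CPM in WT/flox and WT muscle. Tcf7l2 had 1.564 (SE 0.284, adjusted p = 0.0181), with log2 fold changes of 2.1 in progenitors and 0.48 in muscle. Dpp6, the relative of Dpp4, had 2.809 (SE 0.409, adjusted p = 0.00416), with 3.6 in progenitors and 0.74 in muscle. Sparcl1, the relative of Smoc2, had 1.328 (SE 0.284, adjusted p = 0.0493), with 1.48 and 0.1. On leaving out each of the 11 libraries in turn, the call was lost 9 times for Meox1, 5 times for Tcf7l2, 0 times for Dpp6 and 9 times for Sparcl1. Material and day after tamoxifen cannot be told apart in this term for most libraries. Muscle lysate also holds RNA of other cells, in which a change confined to progenitors is diluted. The term therefore cannot show whether progenitors within muscle responded differently from sorted ones.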

How the results depend on the processing

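Between materials, all 10 members stayed called higher in both genotypes under each of the 15 alternatives. Meox1 in progenitors stayed called under all 14, between -1.75 and -1.43 on the log2 scale. The count of members called in progenitors was 2 with DESeq2, which adds Smoc2, and 1 in every set that leaves out a library. In muscle it was 1, Dpp4, with DESeq2, with no filter and with the replicate block, and 0 to 1 on leaving out each library. For the interaction it was 0 with RLE factors and 0 to 1 on leaving out each library. The cause was not tested. Signs changed for members with no call, in muscle mostly on leaving out 73A5. In muscle Meox1 had 0.06193 with total counts and Ly6a -0.04066 with the replicate block. In the interaction Ly6a had -0.04496 and Lum -0.1191 with total counts, and Lum -0.004555 with no filter. Leaving out each library gave -0.02747 to 0.2468 for Cd34 in progenitors. In muscle it gave -0.007721 to 0.5329 for Pdgfra, -0.2184 to 0.4682 for Ly6a, -0.1735 to 1.036 for Pi16, -0.1234 to 0.7959 for Lum, -0.2204 to 0.6422 for Gsn and -0.2642 to 0.2144 for Meox1. In the interaction it gave -0.2848 to 0.423 for Ly6a and -0.4771 to 0.3955 for Lum. Where a WT muscle library is left out, the lone WT library is assumed to vary like the others.

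Over all genes, the count called was 454 in progenitors (262 to 752 over the alternatives; 262 without 74A3, 752 with DESeq2), 92 in muscle (0 without 71B5, 25 without 71B4, 239 without 73A5, 207 without 73A7, 265 with DESeq2) and 106 in the interaction (54 to 269). Of 16 other list genes called in progenitors, 4 (Tcf7l2, Dpp6, Sparcl1 and Cspg4) were called under every alternative, and of 4 in muscle, 0. DESeq2 called 7 pan-fibroblast genes in progenitors (edgeR 4), 6 small leucine-rich proteoglycans (2), 3 CAP relatives (1) and 3 SPARC relatives (1). Whether the authors' replicate numbers pair the libraries is not known, and correlations of deviations within such small groups cannot decide it. Deviations of same-numbered progenitor libraries correlated at 0.0307, 0.294 and -0.133, and of muscle libraries at -0.0186 and -0.475. In progenitors, numbers 1 and 2 joined libraries with a shared identifier prefix (74A2 with 74A1, 72B8 with 72B7), and number 3 did not. With the replicate block 1 member was called in progenitors (491 genes in all) and 1 in muscle (Dpp4, 1.348, adjusted p = 0.0242; 178 genes). Few counts limit Dpp4, Hic1 and Meox1 in muscle, at 36 to 148 per library.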
